A study of Mus musculus with 2 samples.

Results

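Interferon-response macrophages are macrophages that make complement C1q and carry many transcripts of genes that interferon switches on. They were found among leukocytes of mouse intrahepatic cholangiocarcinoma (iCCA, a bile duct cancer that arises within the liver) by a rule on unique molecular identifiers (UMIs), each of which stands for 1 captured transcript molecule. A barcode, taken as 1 cell, was a member if it held at least 5 UMIs of Ifit1, Ifit3 and Rsad2 together and at least 10 UMIs of C1qa, C1qb and C1qc together. It also needed at least 1 UMI of Csf1r, Cd68 or Adgre1. Fewer than 3 UMIs of Cxcl9, fewer than 5 of Arg1, fewer than 3 of Clec4f, Timd4, Cd5l and C6 summed, fewer than 2 of Mmp13, at most 1 of Csf3r and Cxcr2, and at most 1 of Cd79a, Cd3e and Siglech were allowed. The rule found 78 members among 21211 kept barcodes, 18 of 10441 in the NAV library and 60 of 10770 in the MOCK library. These genes were chosen from their measured values, so their levels in the members are given as a description.

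To start the tumours, C57BL/6 mice received a hydrodynamic injection of vectors for Myr-AKT (a membrane-anchored, active form of the kinase AKT) and YAPS127A (an active mutant of the growth regulator YAP), in both groups. From day 7 the NAV mice were given NAV2729, a small molecule known as an inhibitor of the GTPase ARF6, at 30 mg/kg every other day for 7 days, and the MOCK mice were not. Cells positive for CD45, the marker of blood-derived cells, were sorted from digested livers and sequenced on the BD Rhapsody system as 1 pooled library per treatment. The number of tumours in a pool is given as 6 in one place and as 3 in another, and the age and sex of the mice and the MOCK vehicle are not given in the sources used here. With 1 library per treatment, no difference between NAV and MOCK has a replicate check, and a difference between the mice or the libraries cannot be told apart from one between the treatments. Exact 95% intervals below cover counting error only.

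Type I interferons (interferon alpha and beta) bind a receptor made of IFNAR1 and IFNAR2, whose kinases JAK1 and TYK2 activate a complex with STAT2 and IRF9 that binds interferon-stimulated response elements in promoters. The genes switched on include RNA sensors, antiviral effectors such as the IFIT, OAS and viperin proteins, the transcription factor IRF7 that feeds the response forward, and USP18 that damps it. Interferon gamma acts through a receptor of its own and is the stronger inducer of the GBP and IRG GTPases and of Cxcl9, though the gene sets overlap.

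The deposited NAV library held 10465 barcodes and 31454031 UMIs, and the MOCK library held 10863 barcodes and 45976676 UMIs. The kept barcodes had a median of 2178 UMIs in NAV and 3882 UMIs in MOCK. Members did not share this gap. Their median was 5873.5 UMIs in NAV (2601 to 9424) and 5869.5 UMIs in MOCK (908 to 11883), with 3.89% and 3.15% of UMIs from mitochondrial genes. The other C1q macrophages, those that met every condition of the rule but held fewer than 5 UMIs of Ifit1, Ifit3 and Rsad2, numbered 1016 in NAV and 2470 in MOCK and had medians of 4785 and 5321 UMIs. Of the barcode sequences, 5 occurred in both libraries, and 0 of them were members.

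The label was set beside its markers and those of other cell types. The C1q condition of the rule makes C1q present in every member, so its presence is a description and no check. All 18 NAV and all 60 MOCK members held C1qb and C1qc transcripts, and C1qa was seen in 10 of 18 and 44 of 60. C1qb and C1qc were seen in 2.05% and 3.36% of NAV B cells and in 4.87% and 8.32% of MOCK B cells, a type that should lack them, at median depths of 1516 and 1309 UMIs. Irf7, which the rule did not use, was seen in 5 of 18 NAV members (27.8%) and 40 of 60 MOCK members (66.7%), against 2.05% of NAV and 1.22% of MOCK B cells. The sums over markers of other cell types are partly fixed by the rule, which limits Cd3e, Cd79a, Siglech, Csf3r and Cxcr2. Over the members of NAV and MOCK, 10 T cell markers summed to 4 and 19 UMIs, 8 B cell markers to 4 and 10 UMIs, 7 endothelial markers to 3 and 6 UMIs, and 10 hepatocyte or biliary markers to 0 and 3 UMIs. Ly6g and Xcr1, which the rule did not use, were at 0 in the members of both libraries. The 8 natural killer cell markers summed to 8 and 33 UMIs, of which 25 were Gzma in 1 MOCK cell. They were at 0 in 17 of 18 NAV and 59 of 60 MOCK members, so each sum came from 1 cell. Both of these cells also held T cell marker UMIs, and the NAV cell held 82 Cxcl10 UMIs. The 10 neutrophil markers summed to 29 and 97 UMIs, with S100a9 at 0 and 10. Il1r2 was seen in 6 NAV and 16 MOCK members, and S100a8 in 2 and 10. This list was at 0 in 9 of 18 NAV members and 23 of 60 MOCK members. In CPM, a scaled level defined below, it was higher in the members, at 276 in NAV and 278 in MOCK. The other C1q macrophages stood at 197 CPM in NAV and 198 CPM in MOCK. Lists for plasmacytoid dendritic cells (48 and 146 UMIs) and conventional dendritic cells (39 and 103 UMIs) were mostly Tcf4, Bst2 and Itgax, whose levels in the members were within 2-fold of those in the other C1q macrophages of each library. The part of these markers in the results was not tested.

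Promoter sequences are shown for the genes that define the population, because the letters of the interferon-stimulated response element can be read in them. RefSeq promoter windows (build GRCm38.p6) run from 250 bases before a gene's start to 50 bases after it, and GAAA, any 2 bases and GAAA in a row were searched on both strands, so that TTTC, any 2 bases and TTTC are a match on the other strand. Overlapping matches count separately. Each sequence is 100 bases from before the RefSeq start, read on the gene's strand, with the matches it holds in capitals.

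Ifit1 (chr19:34640780-34640879, plus strand): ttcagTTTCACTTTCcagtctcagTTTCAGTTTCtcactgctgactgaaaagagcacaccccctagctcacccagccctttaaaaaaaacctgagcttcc
Rsad2 (chr12:26456493-26456592, minus strand): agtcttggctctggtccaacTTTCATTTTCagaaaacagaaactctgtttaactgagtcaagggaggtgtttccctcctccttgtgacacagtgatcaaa
Isg15 (chr4:156200819-156200918, minus strand): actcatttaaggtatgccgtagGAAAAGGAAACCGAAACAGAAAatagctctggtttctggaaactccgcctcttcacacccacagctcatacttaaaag
Cxcl10 (chr5:92349023-92349122, minus strand): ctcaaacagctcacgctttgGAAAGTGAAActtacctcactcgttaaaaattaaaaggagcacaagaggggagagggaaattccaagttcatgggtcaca
Irgm1 (chr11:48871421-48871520, minus strand): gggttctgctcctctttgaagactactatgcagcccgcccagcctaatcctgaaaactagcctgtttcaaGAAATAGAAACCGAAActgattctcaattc
C1qb (chr4:136886201-136886300, minus strand): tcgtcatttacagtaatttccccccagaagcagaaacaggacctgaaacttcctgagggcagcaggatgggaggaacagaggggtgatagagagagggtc

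The run in Isg15, whose product is a ubiquitin-like protein attached to other proteins, holds 3 overlapping matches, that in Irgm1, an immunity-related GTPase, holds 2 that overlap, and that in Ifit1 holds 2 that are apart. The C1qb window, shown for contrast, holds 0. The letters occurred in the windows of 1079 of 27025 genes (3.99%), of 22 of the 57 antiviral effector genes with a window (38.6%), of 9 of 17 nucleic acid sensor genes (52.9%), of 10 of 11 GBP and IRG genes (90.9%), and of 1 of 15 macrophage identity genes (6.67%). Of the 16 genes ranked highest in the members over the other C1q macrophages, 14 had a window and 6 held a match. The windows of Ifit2, the first of them, and of Irf7 held 0 matches. A match is a description of letters and not a measured binding site, and its absence speaks of this window only.

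Members made up 0.172% of kept barcodes in NAV (exact Clopper-Pearson interval 0.102% to 0.272%) and 0.557% in MOCK (0.425% to 0.717%), a log2 ratio of -1.69 (-2.54 to -0.91). Most of that gap was shared by all C1q macrophages, which were 9.90% of kept barcodes in NAV and 23.5% in MOCK, a log2 ratio of -1.25. Within the C1q macrophages, members were 18 of 1034 in NAV (1.74%, 1.03% to 2.74%) and 60 of 2530 in MOCK (2.37%, 1.81% to 3.04%). The log2 ratio of those shares was -0.45, and its interval, -1.29 to 0.33, held 0. A difference in the share of C1q macrophages that show the response was not detectable at these cell numbers. The depth gap between the libraries moves with the first of these shares, and its part in it was not tested. With every barcode thinned to 4000 UMIs and shallower ones left out, 11 of 3002 kept barcodes were members in NAV (0.366%) and 43 of 5249 in MOCK (0.819%), which were 1.48% and 2.04% of the C1q macrophages left.

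The threshold cut a continuous distribution. Among C1q macrophages, 888 in NAV and 2084 in MOCK held 0 UMIs of Ifit1, Ifit3 and Rsad2, 19 in NAV and 56 in MOCK lay just outside with 3 or 4, and 7 in NAV and 21 in MOCK lay just inside with 5 or 6. The members' sum had a median of 10 in NAV and 9.5 in MOCK and reached 56 in NAV and 174 in MOCK. Many other barcodes passed the interferon condition. In NAV 238 kept barcodes, and in MOCK 325, held at least 5 of these UMIs. Of them 55 in NAV and 184 in MOCK also held at least 10 C1q UMIs. The condition on the Kupffer cell genes Clec4f, Timd4, Cd5l and C6 removed 22 and 81 of those, and the conditions on the neutrophil genes Csf3r and Cxcr2 removed 14 and 26, with some barcodes failing several.

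Genes of the interferon response were higher in the members than in the other C1q macrophages of the same library, across sensors, transcription factors, effectors and GTPases, while genes of macrophage identity were at about the same level. Summed UMIs were scaled to a population total of 1000000 and are given as CPM. The members were picked on 3 of these genes, so what follows describes them and tests nothing. Of 3812 genes with at least 20 UMIs in the members, 124 (3.25%) were at least 2-fold higher in both libraries, and 79 of the 124 were on the interferon lists. Ifit1, Ifit3 and Rsad2, whose excess the rule sets, are among them, and without them 76 of 121 were. That filter lets in only genes seen in members, so the 0 genes (0%) that were at least 2-fold lower in both libraries say nothing about loss. Without the filter, 234 of 10098 genes (2.32%) were higher and 606 (6%) lower, but the 606 had a median of 0 and at most 19 UMIs in the members.

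Among the antiviral effectors, 60 of the 66 measured genes outside the rule passed the filter and 44 of them were past 2-fold in both libraries. Ifit2, which binds foreign RNA and blocks its translation, stood at 466 CPM in NAV and 598 CPM in MOCK members, against 9.79 CPM in NAV and 12.97 CPM in MOCK among the other C1q macrophages. Its log2 ratio of members over the others was 5.57 in NAV (4.98 to 6.17) and 5.53 in MOCK (5.23 to 5.82), the highest of the 16 genes ranked outside the rule by the smaller of both libraries' ratios. Cmpk2, a mitochondrial nucleotide kinase that lies beside Rsad2, had log2 ratios of 4.39 in NAV and 5.92 in MOCK. Isg15 stood at 105 CPM in NAV and 349 CPM in MOCK members, against 7.49 CPM in NAV and 25.9 CPM in MOCK among the others. The ratio within each library was nearly equal, 3.80 in NAV and 3.75 in MOCK, although the levels differed between the libraries. Oasl1, a 2′-5′-oligoadenylate synthetase-like protein, had ratios of 3.26 and 3.99, and Oas3, which makes the activator of RNase L, had 2.88 and 3.00. Slfn1, Herc6, Parp14 and Phf11d had ratios between 2.66 and 3.49. At the other end, Ifitm3, which blocks virus entry and was abundant in all C1q macrophages, had ratios of 0.86 in NAV and 0.89 in MOCK.

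**Figure D1:**
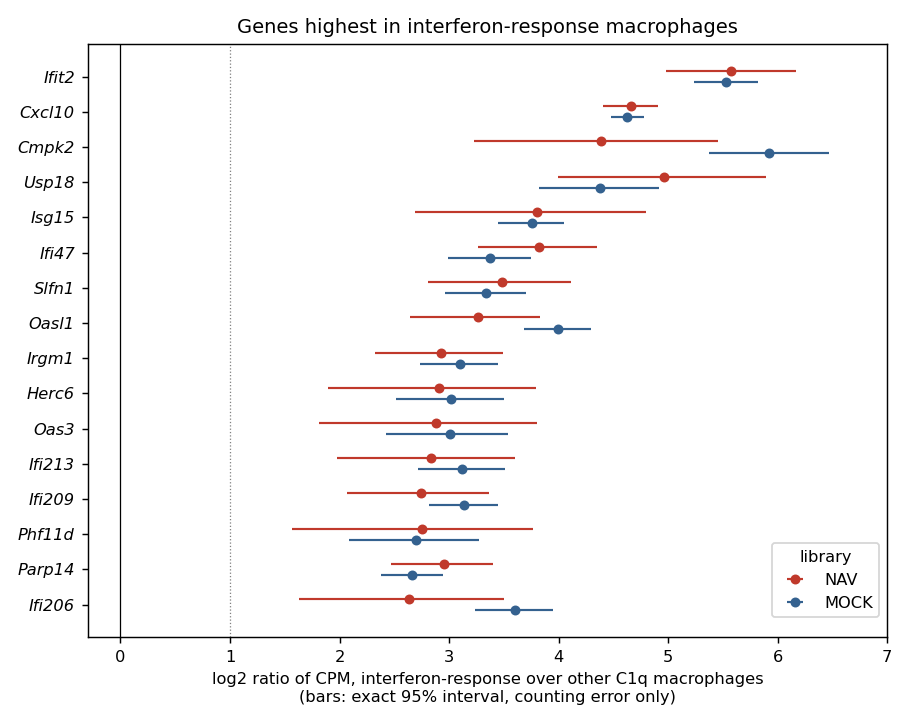
Log2 ratio of CPM (horizontal axis) of interferon-response macrophages over other C1q macrophages for the 16 genes ranked highest (rows), in the NAV library (red, upper point of each row) and the MOCK library (blue, lower point), with exact 95% intervals for counting error as bars and a dotted line at 2-fold. The points run between 2.63 and 5.92, and the NAV and MOCK intervals overlap for most genes.

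Of the nucleic acid sensors, 13 of 18 genes with enough UMIs were past 2-fold in both libraries, with list medians of 2.20 in NAV and 2.13 in MOCK. Ddx58, which encodes the RNA sensor RIG-I, stood at 133 CPM in NAV and 183 CPM in MOCK members, against 28.2 CPM in NAV and 29.0 CPM in MOCK among the others. Ifih1, the RNA sensor MDA5, had ratios of 2.40 and 2.34. Ifi204, a DNA-binding protein of the p200 family, was the most abundant of the list, at 808 CPM in NAV and 896 CPM in MOCK members, with ratios of 2.18 and 2.11. Sting1, the adaptor that relays the signal of the DNA sensor cGAS, was not higher: it stood at 47.5 CPM in NAV and 83.0 CPM in MOCK members, against 72.0 CPM in NAV and 81.2 CPM in MOCK among the others. The p200 genes Ifi203 to Ifi213, like Ifit3 and Ifit3b, Slfn8 and Slfn9 or the class I genes, are similar in sequence, and how reads shared between them were counted is not given in the sources used here, so the split within such a family is uncertain.

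Transcription factors of the pathway were higher by smaller ratios, with 5 of 10 past 2-fold in both libraries. Irf7 stood at 57.0 CPM in NAV and 243 CPM in MOCK members, against 15.2 CPM in NAV and 37.1 CPM in MOCK among the others, which gave ratios of 1.91 and 2.71. Stat2 stood at 162 CPM in NAV and 315 CPM in MOCK members, with ratios of 1.66 and 2.68. Irf9, whose product acts in a complex with STAT2, had ratios of 0.88 and 0.69. The receptor chains and kinases upstream had list medians of -0.20 in NAV and -0.13 in MOCK. Of them 0 of 7 were 2-fold higher in both libraries, against 3.25% of all 3812 genes, so that count alone says little. Ifnar1 stood at 114 CPM in NAV and 123 CPM in MOCK members, against 121 CPM in NAV and 126 CPM in MOCK among the others. Of the feedback inhibitors, Usp18, which removes ISG15 and blocks IFNAR2, had ratios of 4.96 in NAV and 4.38 in MOCK, whereas Socs3 had 0.88 and -0.02. Usp18 and Nlrc5, a regulator of class I genes, were the 2 of 8 past 2-fold in both libraries.

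All 9 GBP and IRG genes with enough UMIs were past 2-fold in both libraries. Ifi47, an immunity-related GTPase, stood at 361 CPM in NAV and 217 CPM in MOCK members, against 25.5 CPM in NAV and 20.9 CPM in MOCK among the others. Irgm1 had ratios of 2.93 and 3.10, and Gbp2, a guanylate-binding protein that attacks the vacuoles of intracellular microbes, had 2.33 and 2.42. Class I presentation was higher by less. H2-K1 had ratios of 0.40 and 0.33, and Tap1, which pumps peptides into the endoplasmic reticulum, had 1.58 and 1.73 and was the 1 of 13 class I genes past 2-fold in both libraries. Of the class II genes 0 of 7 were, against 3.25% of all 3812 genes, and H2-Aa had ratios of -0.27 and -0.06.

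Among the interferon-inducible chemokines, Cxcl10, which recruits CXCR3-bearing T cells, stood at 1864 CPM in NAV and 1691 CPM in MOCK members, against 73.9 CPM in NAV and 68.4 CPM in MOCK among the others, ratios of 4.66 and 4.63. Ccl12, a monocyte chemokine, had ratios of 2.71 and 2.43, and Ccl4, an inflammatory chemokine, had 1.82 and 1.63. Cxcl16 did not share this, at -0.15 and -0.05. Outside the interferon lists, 45 genes were at least 2-fold higher in both libraries. The lists are not complete, since the p200 genes Ifi206 and Ifi208 are among the 45. The genes named here were picked after their values were seen. They included Pml, the core protein of PML nuclear bodies, at 2.79 in NAV and 2.53 in MOCK, and Acod1, which makes itaconate, at 2.64 and 2.38. Cd69, an early activation receptor, had 2.08 and 2.56, Fgl2, a secreted immunoregulatory protein, had 2.06 and 1.45, and the checkpoint ligand gene Cd274 had 1.24 and 1.07.

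Genes that mark macrophages and monocytes were within 2-fold or past it in 1 library alone, apart from Vsig4 on few UMIs. Of 13 macrophage identity genes outside the rule 0 were past 2-fold in both libraries, with medians of -0.16 in NAV and 0.12 in MOCK. Of all 3812 genes 3.25% were 2-fold higher and 0% lower in both, so this and the other counts of 0 below say little. Adgre1, which encodes F4/80, stood at 542 CPM in NAV and 575 CPM in MOCK members, against 506 CPM in NAV and 551 CPM in MOCK among the others, but it is one of the genes of the rule. Of the receptors for the uptake of dying cells, which the rule did not use, Mertk had ratios of -0.57 in NAV and 0.12 in MOCK, and Axl had 0.01 and 0.40. Of 9 monocyte-derived genes and 14 lipid-associated macrophage genes 0 were past 2-fold in both. The monocyte-derived medians were -0.15 in NAV and -0.21 in MOCK, and the lipid-associated medians were -0.61 in NAV and -0.22 in MOCK. Of the Kupffer cell list, part of which the rule used, 3 genes had enough UMIs, and Vsig4, a complement receptor, was past 2-fold in both libraries on 14 UMIs in NAV and 21 in MOCK (2.78 and 1.02). All 14 came from 2 NAV cells and 11 of the 21 from 1 MOCK cell, and without the highest cells the ratios were 1.49 and 0.10, so that the 2-fold difference in MOCK was lost. The lipid carrier gene Apoe had ratios of -0.22 and -0.02, and Spp1, the gene of osteopontin, had -1.24 and -0.38. Likewise 0 of 15 genes of ARF GTPases and the COPI vesicle coat that they recruit were past 2-fold, with Arf6 at 409 CPM in NAV and 383 CPM in MOCK members, against 427 CPM in NAV and 410 CPM in MOCK among the others. The genes ranked lowest in the members, Olr1, Zc3h13, Atp2c1, Dnajb14, Imp3 and Rftn1, rested on 1 to 16 UMIs per library in the members. Of them Olr1, a receptor for oxidised lipoprotein, had 4 UMIs in NAV and 14 in MOCK, with ratios of -1.65 (-3.53 to -0.28) and -1.79 (-2.66 to -1.04).

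**Figure D2:**
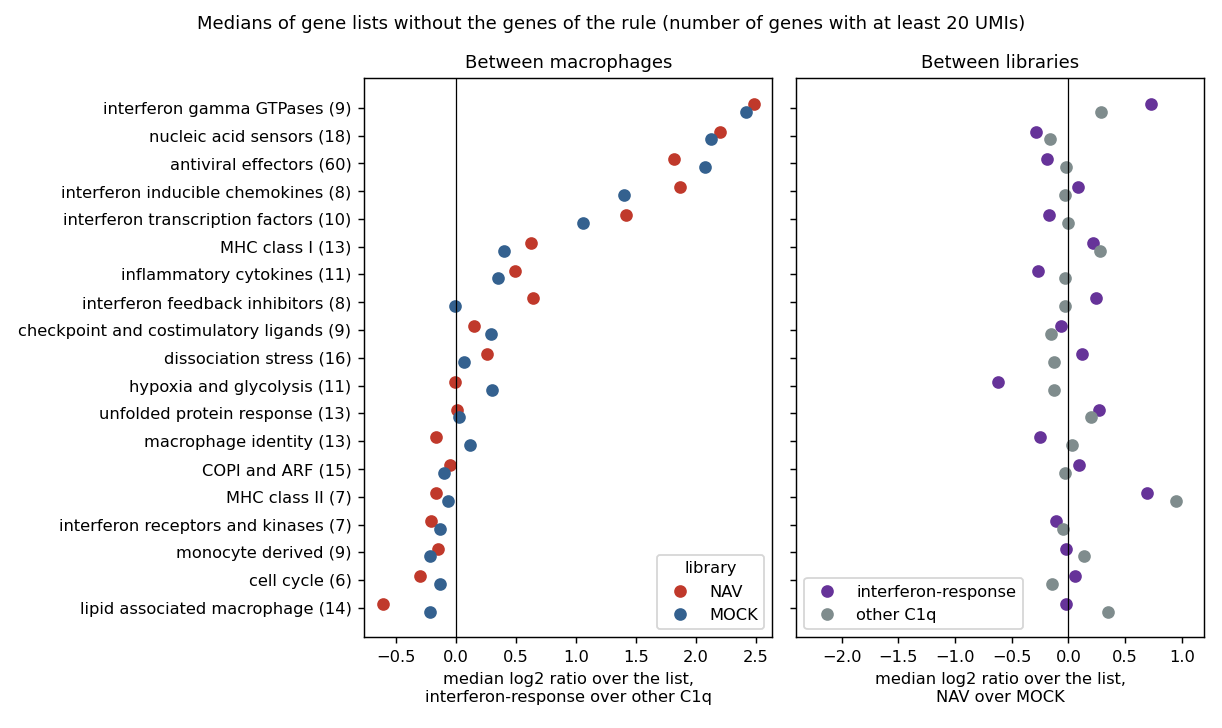
Medians of log2 ratios over gene lists without the genes of the rule (rows, with the number of genes that had at least 20 UMIs in the members): on the left, interferon-response over other C1q macrophages in NAV (red) and MOCK (blue), and on the right, NAV over MOCK within interferon-response (purple) and other C1q macrophages (grey). The interferon lists lie between 1.06 and 2.48 on the left except the feedback inhibitors and the receptors and kinases, and the class II list lies at 0.70 and 0.95 on the right. The Kupffer cell list, with only 3 such genes, is not drawn. Its medians were 1.24 in NAV and -0.17 in MOCK for members over the others. For NAV over MOCK they were 1.15 in the members and -0.61 in the others.

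The antiviral level was graded across macrophages. It was measured per cell as UMIs of the antiviral effectors without Ifit1, Ifit3 and Rsad2, per 10000 UMIs of the cell. Members had a median of 169 in NAV (65.9 to 336) and 193 in MOCK (37.0 to 397). The other C1q macrophages had medians of 62.0 in NAV and 64.5 in MOCK, but their highest cells reached 276 in both, so the populations overlapped. In the C1q macrophages with 1 to 4 UMIs of the 3 genes of the rule, the summed antiviral effectors, again without those 3, stood at 9366 CPM in NAV and 9511 CPM in MOCK. With 0 UMIs they stood at 6378 CPM in NAV and 6469 CPM in MOCK, and with 10 or more at 18413 CPM in NAV and 23049 CPM in MOCK. The Cxcl9-high macrophages held at least 3 UMIs of Cxcl9 and met the other conditions, apart from that on Ifit1, Ifit3 and Rsad2. They had antiviral medians of 98.0 in NAV (n = 49) and 112 in MOCK (n = 34). Of them 1 in NAV and 6 in MOCK held at least 5 UMIs of those 3 genes. The members were selected on these interferon genes and the Cxcl9-high macrophages were not. Interferon-response neutrophils held at least 5 UMIs of the same 3 genes, at least 2 of Csf3r and Cxcr2 and at most 1 of C1q. They had antiviral medians of 324 in NAV (n = 105) and 431 in MOCK (n = 70). Their median depths were 1309 UMIs in NAV and 1551.5 in MOCK, against 5873.5 and 5869.5 in the members. The same limit of 5 UMIs is thus a higher rate in the neutrophils, and its part in their higher medians was not tested.

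**Figure D3:**
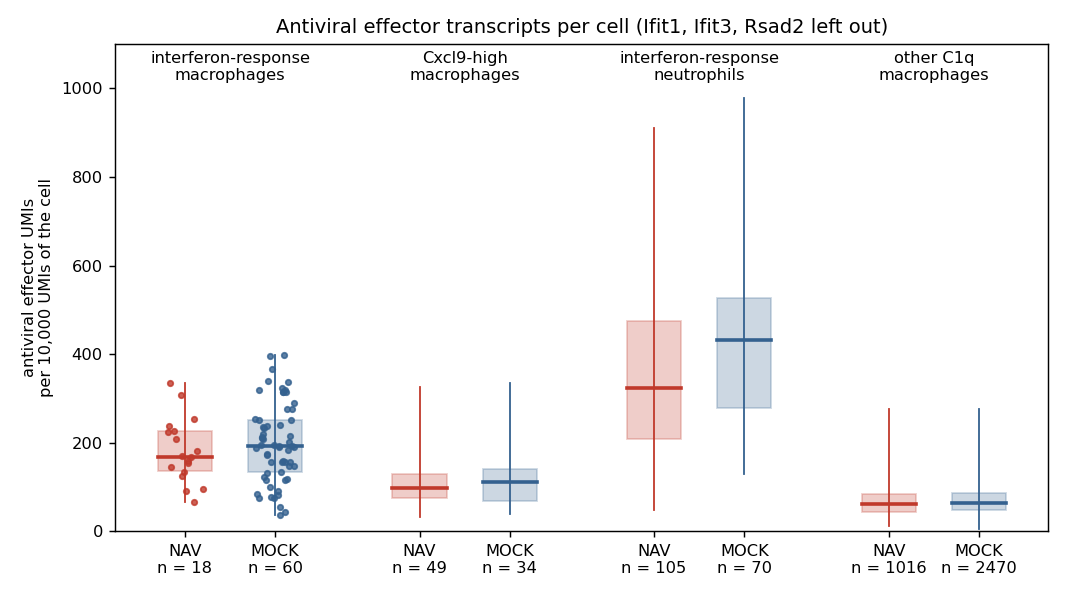
Antiviral effector UMIs per 10000 UMIs of a cell (vertical axis, Ifit1, Ifit3 and Rsad2 left out) in interferon-response macrophages, Cxcl9-high macrophages, interferon-response neutrophils and other C1q macrophages, NAV (red) left of MOCK (blue). Boxes span the interquartile range, thick lines are medians, thin lines run from the lowest to the highest cell, and points are single members, whose medians of 169 and 193 lie above the 62.0 and 64.5 of the other C1q macrophages and below the 324 and 431 of the neutrophils.

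Single members differed in which of the 3 genes of the rule they carried. All of Ifit1, Ifit3 and Rsad2 were present in 10 of 18 NAV members and 38 of 60 MOCK members. Rsad2 alone carried 3 NAV and 11 MOCK members past the threshold. Their antiviral level had a median of 125 in NAV (65.9 to 307) and 82.9 in MOCK (37.0 to 172), against 156 in NAV and 199 in MOCK in the members with all 3 genes. The lowest of the MOCK members lay below the median of the other C1q macrophages. Across the members of a library, the antiviral level ranked with that of the nucleic acid sensors (Spearman's rho 0.71 over 18 NAV cells and 0.70 over 60 MOCK cells) and of the GBP and IRG genes (0.74 and 0.67). It ranked little with the chemokines (-0.04 and 0.22). These cells share a library, and each rate is divided by the same cell's total, with which the antiviral level ranked at -0.29 and -0.24.

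Chemokine transcripts were concentrated in a minority of members. Cxcl10 was seen in 8 of 18 NAV members and 25 of 60 MOCK members, against 0.746% of NAV and 0.406% of MOCK B cells. Of its UMIs in the members, 196 in NAV and 591 in MOCK, the 5 richest cells held 94.9% in NAV and 69.0% in MOCK. As 5 cells are a larger part of 18 than of 60, such shares do not compare the libraries. The highest cell held 82 Cxcl10 UMIs in NAV and 130 in MOCK. That NAV cell was the member with natural killer and T cell marker UMIs. In NAV the C1q macrophages with 5 to 9 UMIs of the rule genes already had 1669 Cxcl10 CPM, and those with 10 or more had 2012. In MOCK the corresponding levels were 168 and 3077 CPM, but the NAV bins hold 9 cells each, and the 63 Cxcl10 UMIs of 1 cell make up most of the lower one. Ccl4 was seen in 10 of 18 NAV members (55.6%) and 33 of 60 MOCK members (55.0%). Many other C1q macrophages held it too, 34.4% in NAV and 41.3% in MOCK, against 3.36% and 3.65% of B cells. The 5 richest members held 91.5% of its member UMIs in NAV and 63.4% in MOCK. Ifit2 was spread more evenly, in 12 of 18 and 48 of 60 members, with at most 19 UMIs in a NAV cell and 35 in a MOCK cell.

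**Figure D4:**
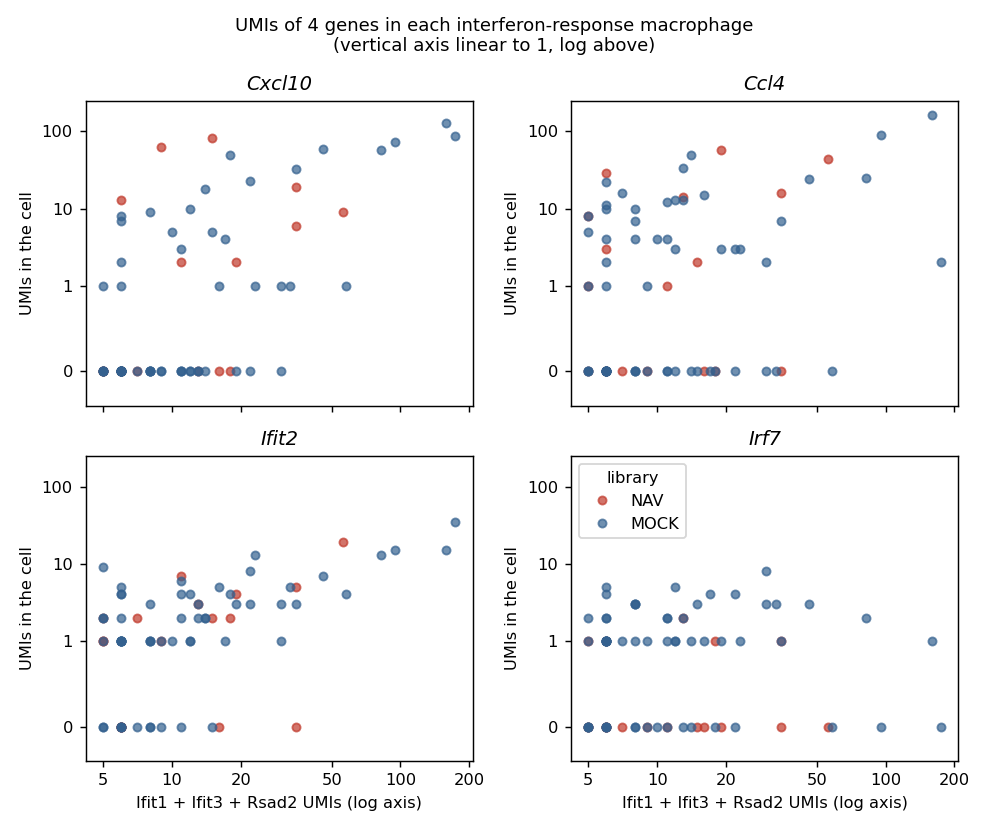
UMIs of Cxcl10, Ccl4, Ifit2 and Irf7 in each of the 78 members (vertical axis, linear to 1 and logarithmic above) against the cell's Ifit1, Ifit3 and Rsad2 UMIs (horizontal log axis), NAV in red and MOCK in blue. Cxcl10 was at 0 in most cells and reached 82 UMIs in NAV and 130 in MOCK, whereas Irf7 stayed at or below 2 UMIs in NAV and 8 in MOCK.

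Members also differed in class II and monocyte genes. H2-Aa, a class II chain, had 10 or more UMIs in 9 of 18 NAV and 23 of 60 MOCK members. The monocyte gene Ly6c2 had 5 or more UMIs in 1 NAV and 9 MOCK members, and Mrc1, the mannose receptor of tissue macrophages, had 3 or more in 1 NAV and 8 MOCK members. Transcripts of interferon genes themselves were rare. Ifnb1, which encodes interferon beta, had 1 UMI in all kept NAV barcodes and 20 UMIs in 11 kept MOCK barcodes, of which 10 held at least 10 C1q UMIs and 2 were members. Those members held 4 and 3 Ifnb1 UMIs, with 130 and 74 Cxcl10 UMIs, 163 and 91 Ccl4 UMIs and 159 and 95 UMIs of the rule genes. They were singled out after their values were seen. In 3 others of the 11 the Kupffer genes summed to at least 38 UMIs beside at least 84 UMIs of the rule genes, and the rule leaves such cells out. Ifng, the gene of interferon gamma, had 128 UMIs in kept NAV barcodes and 43 in kept MOCK barcodes, and 1 and 0 in the members. The 1 UMI lay in the NAV member with natural killer and T cell marker UMIs.

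Between NAV and MOCK, the genes that were lowest in the NAV members were low in the other NAV C1q macrophages as well, whereas several of the highest were not high there. Of 1761 genes with at least 50 UMIs in the members, 20 (1.14%) were at least 2-fold higher in NAV and 117 (6.64%) at least 2-fold lower, 137 (7.78%) in either direction. In the other C1q macrophages 42 of 10075 genes (0.417%) were higher and 529 (5.25%) lower. With each gene's ratio taken relative to that in the other C1q macrophages, 22 genes were higher and 64 lower. A median-of-ratios scaling lowered every NAV/MOCK ratio by 0.11. With 105174 UMIs summed over the NAV members and 349500 over the MOCK members, a gene near the limit of 50 rests on few NAV molecules.

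The antiviral effectors other than Ifit1, Ifit3 and Rsad2 summed to 17514 CPM in NAV and 19159 CPM in MOCK members, against 6767 CPM in NAV and 6964 CPM in MOCK among the others. Over 60 genes their median log2 NAV/MOCK was -0.19, against -0.02 for the same genes in the other C1q macrophages and -0.00 over all 3812 genes with at least 20 UMIs. Of the 60, 0 were 2-fold higher and 9 were 2-fold lower in NAV, against 4.04% and 10.5% of all 3812 genes. The per-cell antiviral levels overlapped over nearly their whole range. Rsad2 stood at 1788 CPM in NAV and 1948 CPM in MOCK, and Ifit2 at 466 CPM in NAV and 598 CPM in MOCK, with ratios of -0.12 and -0.36. Ifit1 was lower, at 247 CPM in NAV and 569 CPM in MOCK, a ratio of -1.20 (-1.85 to -0.61). Its highest cells held 6 UMIs in NAV and 44 in MOCK.

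Some interferon genes were lower in NAV in each macrophage and neutrophil population compared, and over the barcodes outside the C1q macrophages. Irf7 had 6 UMIs in 5 NAV members and 85 UMIs in 40 MOCK members, a ratio of -2.09 (-3.58 to -0.91). Its ratio was -1.29 in the other C1q macrophages, -0.71 in the interferon-response neutrophils, -2.72 in the Cxcl9-high macrophages and -1.42 over all kept barcodes outside the C1q macrophages. In the B cells used for background it was not seen less often in NAV, at 2.05% against 1.22% in MOCK. Thinned to 3000 UMIs per cell, Irf7 was seen in 5 of 16 NAV and 25 of 56 MOCK members (31.2% and 44.6%), with 2 and 4 shallower cells left out. Isg15 had a ratio of -1.74 in the members, -1.79 in the other C1q macrophages, -2.43 in the neutrophils and -1.84 outside the C1q macrophages. Oas1a, a 2′-5′-oligoadenylate synthetase, had -2.73 in the members, on 3 UMIs in NAV and 66 in MOCK, and -1.56, -2.02 and -1.84 in those populations. Ifit1 had 0.10 in the other C1q macrophages, 0.12 in the neutrophils and -0.57 in the Cxcl9-high macrophages, on 11 UMIs in NAV and 14 in MOCK. The rule bounds Ifit1, Ifit3 and Rsad2 in the other C1q macrophages, and the neutrophils were chosen with them. The difference between the populations was not tested.

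The GBP and IRG list had a median NAV/MOCK ratio above 0, with genes of either sign. Its median was 0.73 in the members over 9 genes and 0.29 for the same genes in the other C1q macrophages, with 2 genes 2-fold higher and 0 lower, against 4.04% and 10.5% of all 3812 genes. Igtp had 10 UMIs in NAV and 12 in MOCK, a ratio of 1.47 (0.10 to 2.81), and 0.63 in the other C1q macrophages. Gbp2 had 17 and 28 UMIs, a ratio of 1.01, and 1.09 in the others, and Ifi47 had 0.73 and 0.29. Gbp7 had 0.04 (-0.72 to 0.75), and Irgm2, on 5 UMIs in NAV and 30 in MOCK, had -0.85 (-2.58 to 0.53). Of the sensors, Cgas, the DNA sensor, had 18 UMIs in NAV and 27 in MOCK, a ratio of 1.15 (0.20 to 2.06), against 0.06 in the others. Transcription factors differed in direction, with Irf1 at 0.87 (0.05 to 1.66) and Stat2 at -0.96 (-1.79 to -0.22).

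Most class II genes measured were higher in NAV in the members and in the other C1q macrophages alike. Cd74, the invariant chain, stood at 4298 CPM in NAV and 1951 CPM in MOCK members, against 4451 CPM in NAV and 2239 CPM in MOCK among the others, ratios of 1.14 and 0.99. H2-Ab1 had ratios of 1.02 and 0.95, and H2-DMb1, a chain of the peptide-loading molecule DM, had 1.36 and 1.15. Its partner H2-DMa went the opposite way, at -2.46 in the members on 3 UMIs in NAV and 55 in MOCK and at -1.33 in the others. The protease gene Ctss, which acts on the invariant chain, had -0.14 (-0.26 to -0.01) and -0.04. Over the list 3 of 7 genes were 2-fold higher and 1 lower in NAV members, against 4.04% and 10.5% of all 3812 genes.

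Genes ranked among the highest in NAV members beside the class II genes were Ccl3, Ccl2, Hmox1, Klf6, Dynll1 and Ccl6. Ccl3, an inflammatory chemokine, had 59 UMIs in NAV and 59 in MOCK members, which at the unequal totals gave 561 CPM in NAV and 169 CPM in MOCK, a ratio of 1.73 (1.19 to 2.28). Of the 59 UMIs in NAV, 36 came from 1 cell, and with the highest cell of each library left out the ratio was 0.73. That cell also held 32 of the 54 Hmox1 UMIs of the NAV members. Hmox1, which breaks down haem, had a ratio of 1.26 with that cell and 0.29 without the highest cell of each library. Ccl2, the ligand of CCR2, stood at 609 CPM in NAV and 252 CPM in MOCK members, a ratio of 1.27, with 28 of 64 NAV UMIs in 1 cell, and 0.64 without the highest cells. Klf6, a zinc-finger transcription factor, had 263 UMIs in NAV and 453 in MOCK members, of which the highest cells held 56 and 32, a ratio of 0.95 (0.72 to 1.17) and 0.71 without the highest cells. The dynein light chain gene Dynll1 had 1.42 in the members and 0.75 in the others, and the chemokine gene Ccl6 had 0.99 and 0.16. Leaving out 1 of 18 cells takes more from NAV than 1 of 60 takes from MOCK, so these values are lowered by construction.

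**Figure D5:**
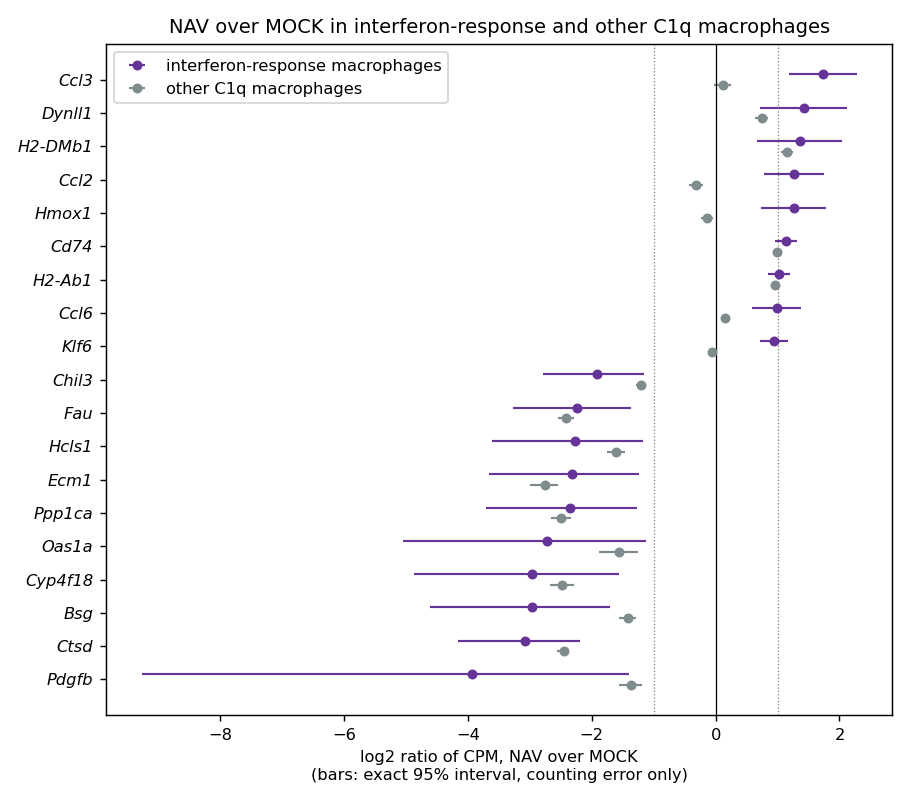
Log2 ratio of CPM, NAV over MOCK (horizontal axis), for 9 of the highest and the 10 lowest ranked genes (rows) in interferon-response macrophages (purple, upper point of each row) and in other C1q macrophages (grey, lower point), with exact 95% intervals for counting error as bars and dotted lines at 2-fold. Cd74 and H2-Ab1 lie near 1 in both, the 10 lower genes lie below -1 in both, and Ccl2, Hmox1 and Klf6 lie above 0 in the members and below 0 in the others.

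At the low end, each of the 10 ranked genes was also at least 2-fold lower in NAV among the other C1q macrophages. Ctsd, the lysosomal protease cathepsin D, stood at 95.1 CPM in NAV and 807 CPM in MOCK members, against 178 CPM in NAV and 977 CPM in MOCK among the others, ratios of -3.09 and -2.46. Outside the C1q macrophages its ratio was -2.85, and in the interferon-response neutrophils -2.10. Fau, which encodes a ribosomal protein, had -2.24 in the members and -2.41 in the others, and Ppp1ca, a phosphatase subunit, had -2.35 and -2.50. Bsg, the lactate transporter partner basigin, had -2.97 in the members on 5 UMIs in NAV and 130 in MOCK, and -1.42 in the others. Chil3, a chitinase-like protein of monocytes, had -1.92 and -1.20, and Pdgfb, a growth factor, had 1 UMI in NAV and 51 in MOCK members. Cyp4f18, Ecm1 and Hcls1, on 4 to 7 UMIs in the NAV members, had ratios between -2.97 and -2.27 in the members and between -2.76 and -1.60 in the others. The part of this library-wide difference in the members' ratios was not tested.

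Chemokines, metabolic and secretory genes gave smaller or less even differences. Cxcl10 had a ratio of 0.14 (-0.10 to 0.38), and -0.28 without the highest cells, and Ccl4 of 0.03 (-0.22 to 0.28). Ccl5 had -1.92, on 13 UMIs in NAV and 163 in MOCK, of which 78 came from 1 MOCK cell, and -1.68 without the highest cells. Of 11 hypoxia and glycolysis genes 2 were 2-fold lower and 0 higher, against 10.5% and 4.04% of all 3812 genes. Their median was -0.62 in the members and -0.12 in the others, and the median of each gene's ratio relative to that in the others was -0.12. Gapdh, a glycolytic enzyme, stood at 647 CPM in NAV and 1456 CPM in MOCK members, a ratio of -1.17, and at -0.53 in the others. Of 15 COPI and ARF genes 0 were past 2-fold in either direction, with a median of 0.09 that was -0.02 under median-of-ratios scaling, and of 13 unfolded protein response genes 0 were, with a median of 0.27. Arf1 had a ratio of -0.27 (-0.75 to 0.17) and Hspa5, the chaperone BiP, had 0.36 (0.14 to 0.58). Of 13 macrophage identity genes outside the rule 1 was 2-fold lower in NAV members, against 10.5% of all 3812 genes: the efferocytosis receptor Mertk, at -1.23 in the members and -0.54 in the others. The C1q genes, which the rule used, stood at -1.25 for C1qa, -0.03 for C1qb and -0.53 for C1qc in the members.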

How the data were processed

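CD45-positive cells were profiled in 1 NAV and 1 MOCK library. Deposited values are raw UMI counts per gene and barcode (31253 genes), made by the authors with fastp, STARsolo 2.7.10a and Cell Ranger on mm10, per the submitters' processing notes. Kept barcodes had 500 UMIs or more, 200 genes or more and less than 20% of UMIs from mitochondrial genes. Counts were summed per population and library. Log2 ratios carry exact 95% intervals conditional on the summed counts and shares exact Clopper-Pearson intervals. The depths are in the report. No test between treatments was possible with 1 library each. Doublets were scored per library with Scrublet in scanpy 1.11.5. Its automatic threshold marked 0 NAV barcodes and 1 MOCK barcode, and whether doublets were removed before deposit is not given. Barcodes above a score of 0.25, among them 1 member in each library, were left out in an alternative. The members' median score was 0.0814 in NAV and 0.0561 in MOCK, against 0.0445 and 0.0482 in the other C1q macrophages. The part of doublets in the results below 0.25 was not tested. B cells, used for background, held at least 3 UMIs of Cd79a and Cd79b and 0 of Cd68, Csf1r and Lyz2.

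Members and gene lists were chosen with earlier results of these data known. Named genes were the 5 markers, the 16 highest and up to 8 lowest genes of members over other C1q macrophages (at least 50 CPM), the 10 highest and 10 lowest of NAV over MOCK by the interval bound nearest 0 (at least 50 UMIs), and of each list the 4 most abundant and 2 extreme genes. Ranked lists left out rule genes, ribosomal, mitochondrial and sex-linked genes and unnamed loci. Other list genes were named for their role after their values were seen. The interval code was tested on simulated data. Analysis used Python 3.11.15, numpy 2.4.6, scipy 1.17.1, pandas 2.3.3 and matplotlib 3.10.9. Some named genes are not reported here.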

Additional observations from a re-analysis of the deposited data

Results flagged for a closer look

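The 145 named genes with a NAV/MOCK ratio in the members were searched, and no others. In 6 of them the counting intervals left out 0 in opposite directions in the members and in the other C1q macrophages. Ccl2, Hmox1 and Klf6 had been named because their ratios in the members ranked among the highest, so they were not picked independently of this contrast. The difference between the populations was not tested, since each treatment has 1 library. Log2 NAV/MOCK of Ccl2 was 1.27 in the members and -0.32 in the other C1q macrophages. Hmox1 stood at 1.26 and -0.14, and Klf6 at 0.95 and -0.06. The cytokine gene Il1b stood at 0.51 and -0.10, and the surface protein gene Ly6e at 0.34 and -0.16. Vsig4, a complement receptor of resident macrophages, stood at 1.15 and -0.61, on 14 UMIs in 2 NAV members and 21 UMIs in 7 MOCK members. Without the highest cell of each gene in each population, the members' values were 0.64 for Ccl2, 0.29 for Hmox1, 0.71 for Klf6, 0.16 for Il1b, 0.25 for Ly6e and 0.73 for Vsig4.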

How the results depend on the processing

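Thresholds of 3 and 8 UMIs, stricter filters, removal of Scrublet scores above 0.25, thinning to 4000 UMIs and a threshold per 10000 UMIs gave log2 NAV/MOCK shares of kept barcodes between -1.88 and -1.16. The same 6 alternatives gave shares of C1q macrophages between -0.64 and -0.25. Leaving out the genes of the rule from the lists, and leaving out the highest cell of each gene, were chosen after seeing the data. The second falls harder on the 18 NAV than on the 60 MOCK members. Genes 2-fold higher in NAV members numbered 20, against 12 under median-of-ratios scaling, 154 with a minimum of 20 UMIs and 7 without the highest cells. Those 2-fold lower numbered 117, against 401 with a minimum of 20 UMIs, 64 relative to the other C1q macrophages and 216 without the highest cells. Genes higher in members numbered 234, against 116 without the highest cells. Genes lower in members numbered 606, against 246 and 1005 at thresholds of 3 and 8 UMIs, 1198 with a minimum of 20 UMIs and 2053 without the highest cells. Relative to the other C1q macrophages, log2 NAV/MOCK turned positive for Isg15 (0.050), Fau (0.17), Ppp1ca (0.15) and Ecm1 (0.44), and without the highest cells Hmox1 in NAV members over the others was -0.016. The cause was not tested. The 18 NAV members limit all comparisons between treatments. No paired analysis was possible because each treatment has 1 library.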
